A study of Mus musculus with 12 samples.

Results

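Fragments of 3 mitochondrial tRNAs were described in mouse liver: the proline tRNA chrM.tRNA15-ProTGG, the glutamate tRNA chrM.tRNA16-GluTTC and the threonine tRNA chrM.tRNA14-ThrTGT. Members were all distinct sequences listed under 1 of these mature tRNAs and under no other tRNA, whatever their subtype. The rule used names and gene position alone, and it found 3547 of the 87699 distinct sequences of the series (1084 for Pro, 1883 for Glu and 580 for Thr). Another 5 sequences, with 5 reads in all, were shared with other tRNAs and left out. The series holds 12 tRF-seq libraries, which read small RNAs of 14 to 40 nt from the liver of male B6D2F1/Crl mice aged 8 to 12 weeks. Wild-type (WT) mice and mice with the genotype NSun2-/- (NS-KO) were taken at D0, D3 and D27, with 2 libraries in each of the 6 groups. Mice at D0 received corn oil, those at D3 had acute injury from 1 injection of CCl4, and those at D27 had repeated injections. Each dose of CCl4 was 2 mL per kg, dissolved at 40% in the oil. The knockout was made by a CRISPR deletion within the NSun2 gene. The question of the design was how loss of NSun2 and liver injury change tRNA-derived small RNAs (tsRNAs). NSun2 mRNA and liver cell markers are not measured by this assay, so neither the genotype nor the tissue could be checked here. Each group had 2 mice, and its libraries are independent biological replicates per the study's methods.

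Mammalian mitochondrial DNA is transcribed from both strands into long precursors in which tRNAs lie between the protein-coding transcripts. Cutting out these tRNAs releases the mRNAs and rRNAs, and each tRNA then receives a 3′ CCA tail and is modified before it serves mitochondrial translation. NSUN2 is a methyltransferase that makes 5-methylcytosine in many cytosolic tRNAs and also acts on mitochondrial tRNAs. Cleavage of a tRNA leaves tsRNAs, which are named by where they lie, such as tRF-5c at the 5′ end and tRF-3b at the 3′ end. Reads that meet none of these definitions are listed as Other.

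The 3 genes flank cytochrome b, a subunit of respiratory complex III, and they do not share a strand. On chromosome M of GRCm38, cytochrome b (CYTB) lies at chrM:14145-15288 on the plus strand. The Glu gene (TrnE, chrM:14071-14139, minus strand) lies before it. The Thr gene (TrnT, chrM:15289-15355, plus strand) follows it directly, and the Pro gene (TrnP, chrM:15356-15422, minus strand) follows Thr. These tRNA genes have no introns, and each mature tRNA spans its whole gene. The last 40 bases of the Thr precursor in the alignment reference are the reverse complement of the 3′ part of the Pro tRNA, so a read can come from only 1 of them. The mature tRNAs are shown because all positions below refer to them, counted from 1 at the 5′ end, with the CCA tail included and the anticodon in capitals:
Pro-TGG: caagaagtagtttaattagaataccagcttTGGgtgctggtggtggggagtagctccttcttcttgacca
Glu-TTC: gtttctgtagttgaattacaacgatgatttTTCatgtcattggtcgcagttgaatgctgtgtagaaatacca
Thr-TGT: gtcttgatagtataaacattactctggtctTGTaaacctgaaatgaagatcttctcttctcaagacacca

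The fragments listed here lie mostly in and after the anticodon arm. They are shown because the first 3 were read mostly in NS-KO at D3, the fourth is the leading 5′ fragment of Pro, and the last 2 are among the most abundant fragments of Glu and Thr. A capital marks a base that differs from the tRNA:
Pro-TGG bases 37 to 55: ctggtggtggggagtagct
Pro-TGG bases 37 to 57, with C57T: ctggtggtggggagtagctcT
Glu-TTC bases 39 to 59: attggtcgcagttgaatgctg
Pro-TGG bases 1 to 30: caagaagtagtttaattagaataccagctt
Glu-TTC bases 38 to 72: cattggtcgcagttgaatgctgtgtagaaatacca
Thr-TGT bases 30 to 69: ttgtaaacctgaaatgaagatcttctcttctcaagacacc

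The libraries hold between 46937 and 275568 tRNA reads, 1705883 in all, of which the members have 14258 (3292 for Pro, 9663 for Glu and 1303 for Thr). Levels are given as CPM, the reads of a tRNA relative to all tRNA reads of the library. A count of 0 allows up to 10.9 CPM in the deepest library and up to 63.9 in the shallowest, counting error only. The 2 NS-KO D3 libraries stand apart from the others. They hold 32656 and 25470 distinct sequences against 9758 to 16015 elsewhere. Mature mitochondrial tRNAs take 30.3% and 50.1% of their reads, against 20.4% to 25.0% in NS-KO at D0 and D27 and 4.81% to 12.0% in WT. The part of these differences in the results below was not tested. In bulk liver RNA, a change in the number of cells of a type and a change in RNA per cell cannot be told apart.

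Pro fragments rose most. In WT livers the CPM was 154 and 155 at D0, then 344 and 166 after acute injury (D3), then 204 and 119.8 at D27. In NS-KO livers it was 523 and 767 at D0, but 6507 and 12024 at D3, and again 341 and 696 at D27. Both NS-KO D3 libraries were far above the other 10, and they hold 90.3% of all Pro reads (1441 and 1531, against 16 to 41 reads in each other library). The CPM values of NS-KO and WT did not overlap at any day, although the lowest NS-KO value, at D27, lay within the WT range over all days. The median of all tRNA sums was also higher in NS-KO in CPM at D0 and D27, as given below.

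Glu had the most reads of the 3 tRNAs in every library. Its CPM in WT was 1138 and 1709 at D0, then 4110 and 2110 at D3, then 2146 and 1459 at D27. In NS-KO it was 5874 and 6455 at D0, then 12870 and 25250 at D3, then 7025 and 8502 at D27. All NS-KO libraries lay above all WT libraries, and those of D3 were the highest. Thr had the fewest reads in all. Its CPM in WT was 248 and 427 at D0, then 761 and 336 at D3, then 447 and 199.6 at D27. In NS-KO it was 918 and 959 at D0, then 1617 and 2694 at D3, then 873 and 1113 at D27. Again no NS-KO library fell within the WT range. Mature mitochondrial reads as a whole showed the same separation, at 20.4% to 50.1% of NS-KO libraries and 4.81% to 12.0% of WT libraries. How many other tRNA sums did not overlap was not counted. The NS-KO D3 libraries hold 62.8% of Glu reads and 53.8% of Thr reads.

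**Figure D1:**
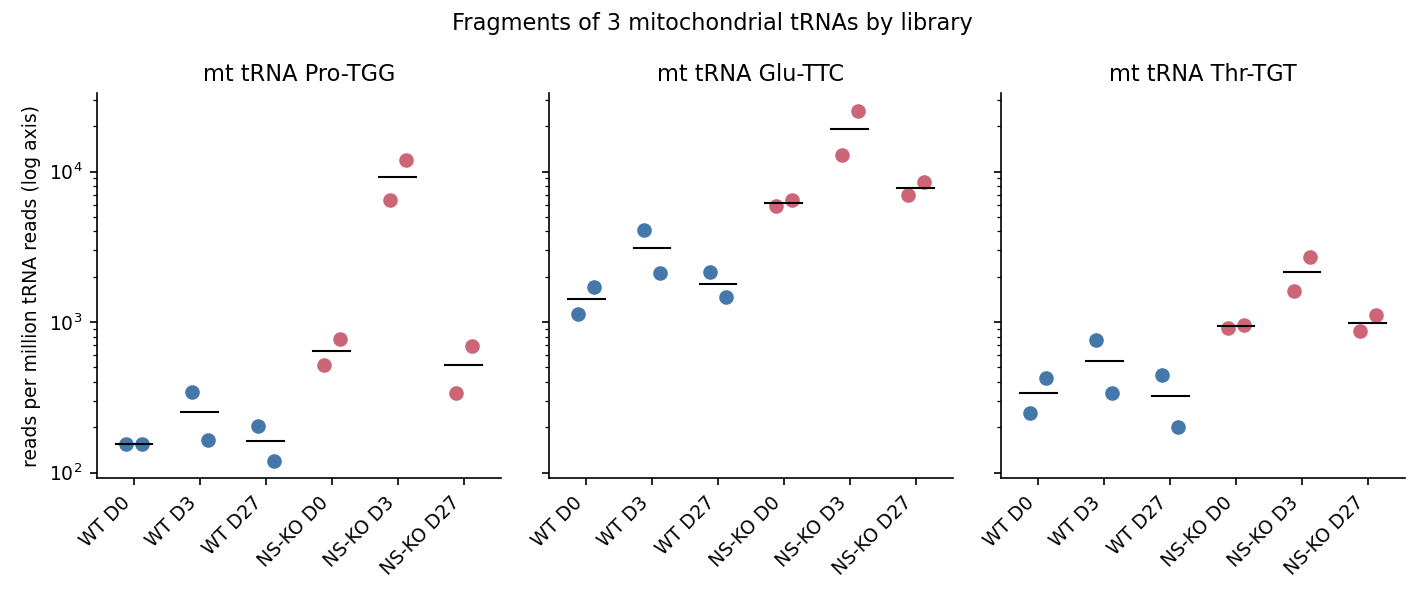
CPM (log axis) of each of the 3 tRNAs in the 12 libraries; points are libraries, bars are group means, WT is blue and NS-KO red. Pro at NS-KO D3 (6507 and 12024 CPM) stands furthest from the other libraries, and for Glu and Thr every NS-KO library lies above every WT library. The latter also holds for mature mitochondrial reads as a whole.

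CPM is a share of a library, and the libraries differed in what else they held. Fragments of type tRF-5c, from all tRNAs, took 35.6% to 71.5% of a WT library and 12.5% to 30.4% of an NS-KO library. With CPM alone, the median of all 165 tRNA sums tested was 1.46 higher in NS-KO at D0 and 1.44 higher at D27 on the log2 scale. TMM scaling brought these medians to 0.18 and 0.08, and the tests below use it (limma with a trend on log2 CPM, Benjamini-Hochberg over all sums or fragments of the level).

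After this scaling, the genotypes differed at D3. The Pro sum was higher in NS-KO by 5.23 on the log2 scale (SE 0.36, limma adjusted p = 2.02e-06), the Glu sum by 2.72 (SE 0.27, limma adjusted p = 2.13e-05) and the Thr sum by 2.12 (SE 0.27, limma adjusted p = 8.45e-05). Of the 165 tRNA sums, 23.6% were called higher in this comparison, and their median log2 fold change was 0.21. At D0 none of the 3 passed, with 9.7% of sums called higher. Their log2 fold changes there were 0.64 for Pro (SE 0.36), 0.78 for Glu (SE 0.27) and 0.17 for Thr (SE 0.27), and the lowest limma adjusted p was 0.0966, for Glu. At D27 none passed either, with 0% called higher. The values were 0.19, 0.68 and 0.27 for Pro, Glu and Thr, and the lowest limma adjusted p was 0.163. With CPM alone, all 3 were called higher at both days, with log2 values of 1.49 to 2.13 at D0 and 1.55 to 2.12 at D27. The shift of all sums was 1.46 and 1.44 there, as given above. The share of all tRNA sums called on this scale is not given here, so these calls do not set the 3 apart. Other mature mitochondrial tRNA sums were called higher on this scale too. At D0 these were 5 of 7 encoded on the light strand and 13 of 13 on the heavy strand, and at D27 3 of 7 and 11 of 13, with the 3 tRNAs counted among them.

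Over the 3 days together, all 3 sums were higher in NS-KO, where 30.9% of tRNA sums were called higher. The log2 fold changes were 2.02 for Pro (SE 0.21), 1.39 for Glu (SE 0.16) and 0.85 for Thr (SE 0.16), and the limma adjusted p was 0.00145 or lower. Without D3, a comparison chosen after the data were seen, Glu was still called, at 0.73 (SE 0.19, limma adjusted p = 0.0293), with 10.3% of sums called higher. Pro and Thr were not, at 0.42 and 0.22 (limma adjusted p = 0.299 and 0.447).

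Within NS-KO livers, all 3 sums rose from D0 to D3. The log2 change was 4.51 for Pro (SE 0.36), 2.31 for Glu (SE 0.27) and 1.89 for Thr (SE 0.27), with limma adjusted p of 0.000223 or lower and 20.6% of sums called higher. Within WT, none of the 3 passed from D0 to D3, where 0% of sums were called higher and the lowest limma adjusted p of the 3 was 0.761. The difference between the genotypes in this change was itself past the threshold. It was 4.59 for Pro (SE 0.52), 1.94 for Glu (SE 0.39) and 1.95 for Thr (SE 0.38), with limma adjusted p of 0.000316, 0.00502 and 0.00458 and 13.3% of sums called higher. The calls for Glu and Thr in this difference were lost with CPM alone (0.48 and 0.53) and with reads outside tRF-5c as the total (1.30 and 1.33), while that for Pro held. The Thr rise from D0 to D3 in NS-KO was also lost with CPM alone (1.14). From D0 to D27 none of the 3 passed in WT (0% called higher), in NS-KO (0.606% called higher) or in the difference between them (0% called higher), and the lowest limma adjusted p of the 3 was 0.605. These comparisons share their D0 and D3 libraries.

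The rise at D3 was shared by most mitochondrial tRNAs. Of the 20 mature mitochondrial tRNA sums that passed the filter, 7 of 7 encoded on the light strand and 11 of 13 encoded on the heavy strand were higher in NS-KO at D3, and 0 were lower. Their median log2 fold changes were 4.23 and 2.57. Pro had the highest value of the 20, followed by the light-strand tRNAs Cys (4.51, SE 0.60), Ala (4.38, SE 0.59) and Ser-TGA (4.23, SE 0.37). The differences between Pro and these 3 were not tested. Glu stood at rank 11 and Thr at rank 17. The neighbouring Thr and Pro genes, on opposite strands, thus stood near opposite ends of this order. Over days, 7 of 7 light-strand and 11 of 13 heavy-strand sums were higher. From D0 to D3 in NS-KO the counts were also 7 of 7 and 11 of 13, and for the difference between genotypes in that change they were 7 of 7 and 7 of 13. At D0, 0 of 7 and 1 of 13 were higher. With CPM alone the counts at D3 were 7 of 7 and 10 of 13. On that scale they were 5 of 7 and 13 of 13 at D0, 7 of 7 and 6 of 13 from D0 to D3 in NS-KO, and 4 of 7 and 1 of 13 for the difference in change. The share of all tRNA sums called with CPM alone is not given here, so these counts do not set the mitochondrial tRNAs apart.

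**Figure D2:**
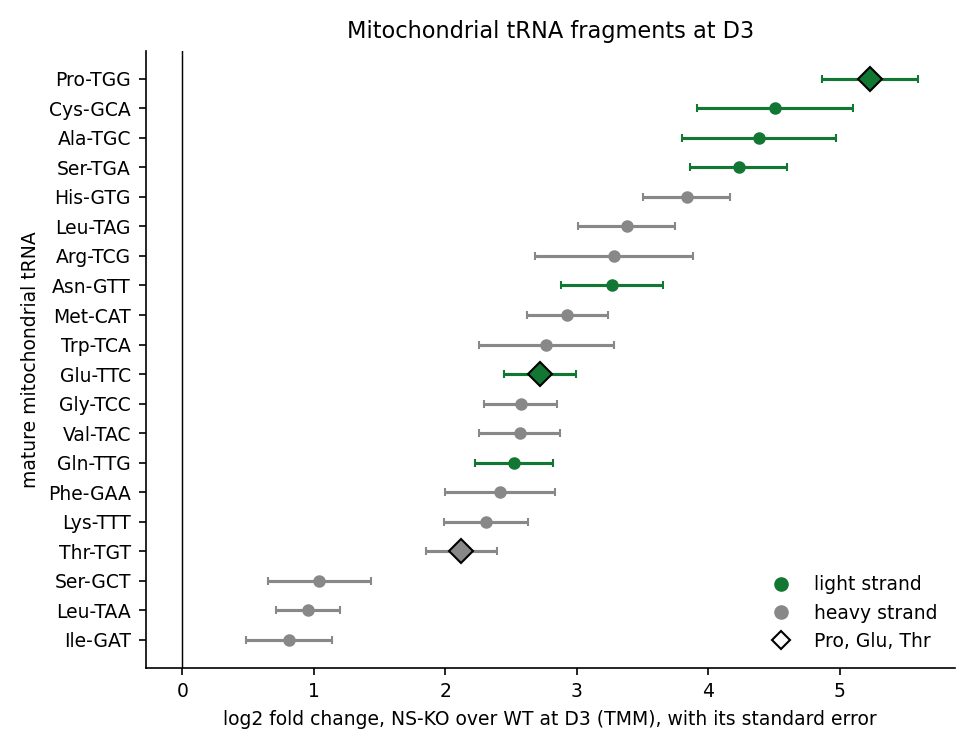
Log2 fold change of NS-KO over WT at D3 for the 20 mature mitochondrial tRNA sums tested, with standard errors; green marks light-strand and grey heavy-strand genes, and diamonds mark Pro, Glu and Thr. Pro is at the top with 5.23, Glu in the middle with 2.72 and Thr near the lower end with 2.12.

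As a share of all mature mitochondrial tRNA reads, the 3 differed. Pro held 0.155% to 0.375% of mature mitochondrial tRNA reads in the 10 libraries outside NS-KO D3, and 2.15% and 2.40% in the NS-KO D3 libraries. Glu held 2.27% to 3.42% in WT. In NS-KO its share was 2.35% and 3.16% at D0, then 4.25% and 5.05% at D3, then 3.20% and 3.80% at D27. Thr held 0.415% to 0.633% in WT and 0.367% to 0.538% in NS-KO. The Thr share in NS-KO at D3, 0.533% and 0.538%, lay inside the WT range. Averaged over days, the share in NS-KO minus that in WT was 0.674 percentage points for Pro, 0.825 for Glu and -0.0661 for Thr. Permuting genotype labels within each day (exact test, two-sided) gave p-values of 0.167, 0.0278 and 0.194, or 0.474, 0.146 and 0.474 after adjustment over 21 tRNAs, of which 0 passed. The smallest p this test can give is 0.00926.

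Using the mature mitochondrial reads as the library size in the fit at D3 gave a log2 fold change of 3.11 for Pro, which was still called. It gave 0.56 for Glu (limma adjusted p = 0.108) and -0.01 for Thr (limma adjusted p = 0.982). On this scale a value of 0 means a change equal to that of the mitochondrial reads as a whole. Ser-GCT makes up most of that whole in WT, with a mean share of 63.3%. Its share in NS-KO minus that in WT was -32.8 percentage points at D3, where its TMM-scaled sum was not called (log2 1.04, limma adjusted p = 0.0696). The shares and the values on this scale are thus not set against a typical mitochondrial tRNA.

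**Figure D3:**
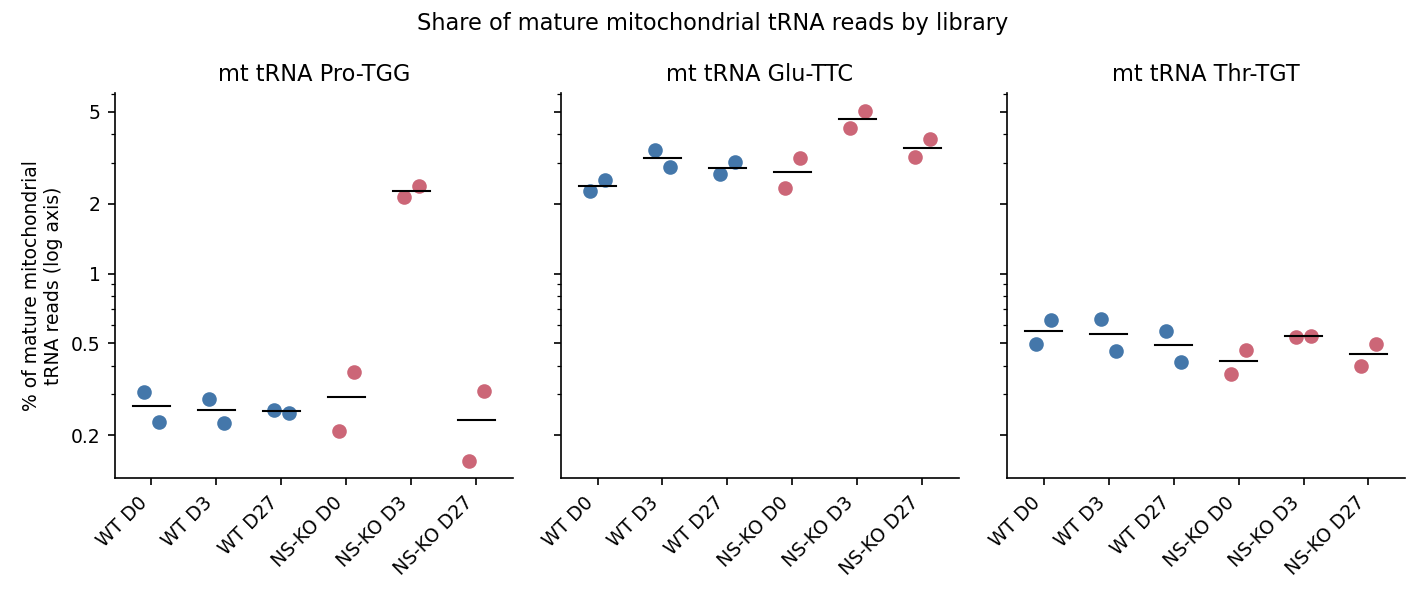
Share of all mature mitochondrial tRNA reads held by each tRNA (percent, log axis) in the 12 libraries; points are libraries and bars group means, WT blue and NS-KO red. Pro rises to 2.15% and 2.40% in NS-KO at D3, while Thr stays between 0.367% and 0.633% throughout.

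Across the 12 libraries, the pattern of log2(CPM + 1) most like that of Pro was that of Ser-TGA (Pearson r = 0.995), then Cys (0.964) and Gln (0.959), all light-strand tRNAs. For Glu it was Gly (0.985), Thr (0.978) and Val (0.977). For Thr it was Gly (0.983), Glu (0.978) and Met (0.974). Pro was further from Glu (0.916) and from Thr (0.907). These values describe 20 other tRNAs in the same libraries, which share depth and the 2 high NS-KO D3 libraries.

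The type of fragment was uneven. Of the reads, 95.5% for Pro, 99.2% for Glu and 96.4% for Thr were listed as Other, and 5 subtype sums passed the filter on low counts: Other of each tRNA, and tRF-5c and tRF-3b of Pro. At D3 the Other sum was higher in NS-KO by 5.76 for Pro (SE 0.44, limma adjusted p = 2.49e-05), 2.74 for Glu (SE 0.29, limma adjusted p = 8.22e-05) and 2.15 for Thr (SE 0.29, limma adjusted p = 0.000269), against 17.7% of 339 subtype sums called higher. The same 3 Other sums were called higher over days (20.4% of sums called), from D0 to D3 in NS-KO (15% called) and for the difference between genotypes in that change (10% called). That last difference was 5.54 for Pro, 1.94 for Glu and 2.03 for Thr. The calls for Glu and Thr in it were lost with CPM alone (0.48 and 0.61), with reads outside tRF-5c as the total (1.30 and 1.40) and with mature mitochondrial reads as the total (0.37 and 0.49). They were also lost on leaving out some libraries, Glu without WT D0 replicate 1, WT D3 replicate 1 or NS-KO D0 replicate 2, and Thr without NS-KO D0 replicate 2. The rise of Other Thr from D0 to D3 in NS-KO was lost with CPM alone (1.22) and with mature mitochondrial reads (0.43). With mature mitochondrial reads, that of Other Glu (0.77) and the D3 calls of Other Glu (0.57) and Other Thr (0.02) were lost too.

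No rise of the tRF-5c fragments of Pro was detected. The tRF-5b reads of Pro, whose sum did not pass the filter, numbered 6 and 8 in NS-KO at D3 and 0 or 1 in each other library. Each WT library held 4 to 10 of the tRF-5c reads. NS-KO livers gave 11 and 11 at D0, then 7 and 11 at D3, then 1 and 3 at D27. At D3 their log2 fold change was -0.09 (SE 0.44, limma adjusted p = 0.919), and from D0 to D3 in NS-KO it was -0.90 (SE 0.44, limma adjusted p = 0.190). The tRF-3b sum of Pro, with 0 to 10 reads in a library, gave 1.71 at D3 (SE 0.61, limma adjusted p = 0.0643). It passed with CPM alone (1.85), with voom weights (3.24) and with a prior count of 0.5 (3.27), and on leaving out either NS-KO D0 library or NS-KO D3 replicate 1. Relative to mature mitochondrial reads, the tRF-5c sum was called lower at D3 (-1.73) and from D0 to D3 in NS-KO (-2.04). Its difference between genotypes in that change, -1.33 and not called with TMM (limma adjusted p = 0.223), was called lower with CPM alone (-2.59) and with mitochondrial reads (-2.54).

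The position of the Pro reads stood furthest from WT in NS-KO at D3. In WT, a mean of 37.4% of Pro reads started at base 1 (SD 10.5, n = 6), and base 30, just before the anticodon, was the most frequent last base (16.4%). In NS-KO, 40.5% and 38.9% started at base 1 at D0. At D27, where the Pro sum was not called, 12.5% and 15% did, on 16 and 40 reads, against 21.2% to 50% in WT. In NS-KO at D3, 1.25% and 1.70% of Pro reads started at base 1, and a mean of 97.3% had neither end at an end of the tRNA, against 30.6% to 81.2% in the other 10 libraries. These reads started most often at base 37 (14.4%), 30 (11.1%) or 39 (8.32%) and ended at 57 (18.5%), 55 (14.6%) or 56 (9.38%). A mean of 90.6% of Pro reads covered base 43 in NS-KO at D3, 44.2% in WT and 52.9% in NS-KO at D0 and D27.

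Glu reads started mostly in or after the anticodon, 93.5% to 98.2% of them in the 10 libraries outside NS-KO D3 and 84.2% and 84.8% in NS-KO at D3. In WT a mean of 43.7% started at base 38 and 14.1% at base 49. In NS-KO at D0 and D27 these means were 51.0% and 10.7%. In NS-KO at D3 only 9.68% and 9.77% started at base 38, below the 30.6% to 59.1% of the other 10 libraries. The leading first bases there were 34 (11.2%), 39 (10.7%) and 38. Glu reads that reached the last base of the CCA tail fell to 7.58% and 6.91% in these libraries, against 20.1% to 35.6% in the others.

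Thr reads were the longest on average outside NS-KO D3. In WT a mean of 63.2% started at base 30, just before the anticodon, and 42.0% ended at base 69, 1 base short of the CCA end. In NS-KO at D3, 23.7% and 23.3% started at base 30, against 46.3% to 76.8% elsewhere, and base 55 became the most frequent end (14.9%). Mean read length was 25.8 nt in both NS-KO D3 libraries and 30.7 to 35.6 nt in the other 10. The positions named here were chosen after their values were seen, and they were not tested.

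**Figure D4:**
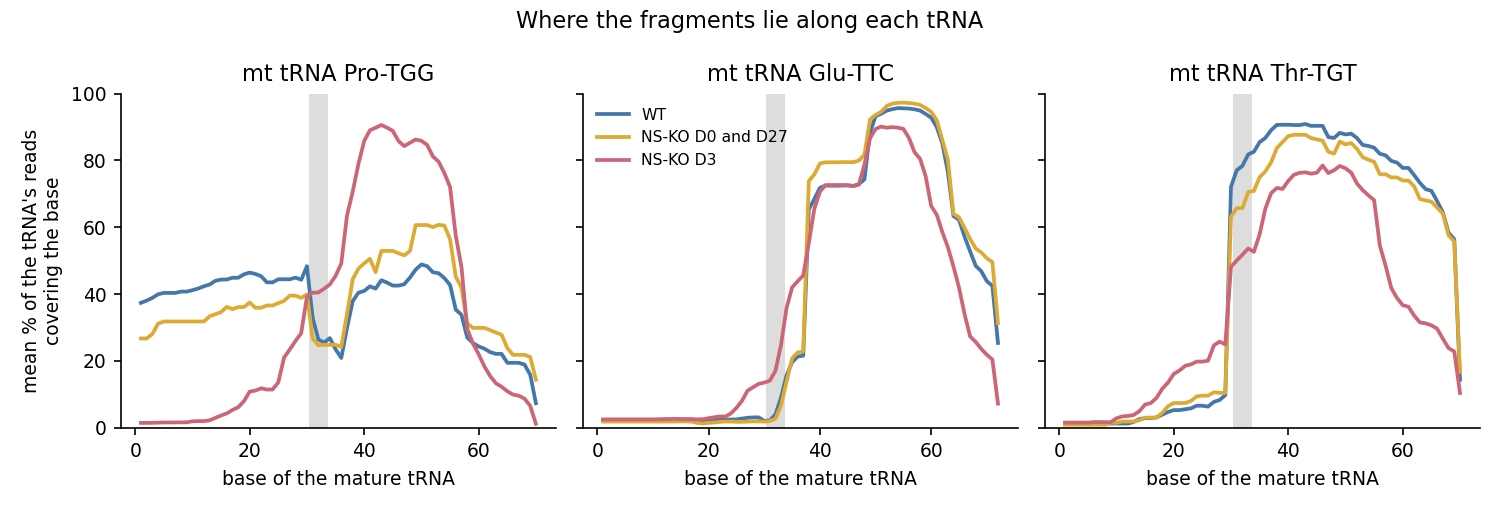
Mean percentage of each tRNA's reads that cover each base of the mature tRNA, for WT (6 libraries), NS-KO at D0 and D27 (4) and NS-KO at D3 (2); grey marks the anticodon. Pro reads of the NS-KO D3 libraries peak around base 43 (90.6%) and are few at the 5′ end, and Glu and Thr reads of these libraries end earlier on the 3′ side.

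The 5 measures of make-up fixed for each tRNA were tested between genotypes by the same exact permutation within days, 15 tests in all, and 0 passed after adjustment. The lowest raw p-values were for Thr read length, which was 3.85 nt shorter in NS-KO on average (exact p = 0.0278, adjusted p = 0.347), and for the share of Pro reads starting at base 1, with a difference of -19.1 percentage points (exact p = 0.0463, adjusted p = 0.347). The test averages the days, and the differences of both measures were largest at D3. The Thr difference was -4.09 nt at D0, -7.41 nt at D3 and -0.06 nt at D27. The Pro difference was 0.64 percentage points at D0, -39.15 at D3 and -18.73 at D27. An exact permutation of 2 libraries against 2 could not pass at D3 alone, and no other test of these measures was run. NS-KO D27 replicate 1 holds 16 Pro reads, so its shares for Pro are imprecise.

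**Figure D5:**
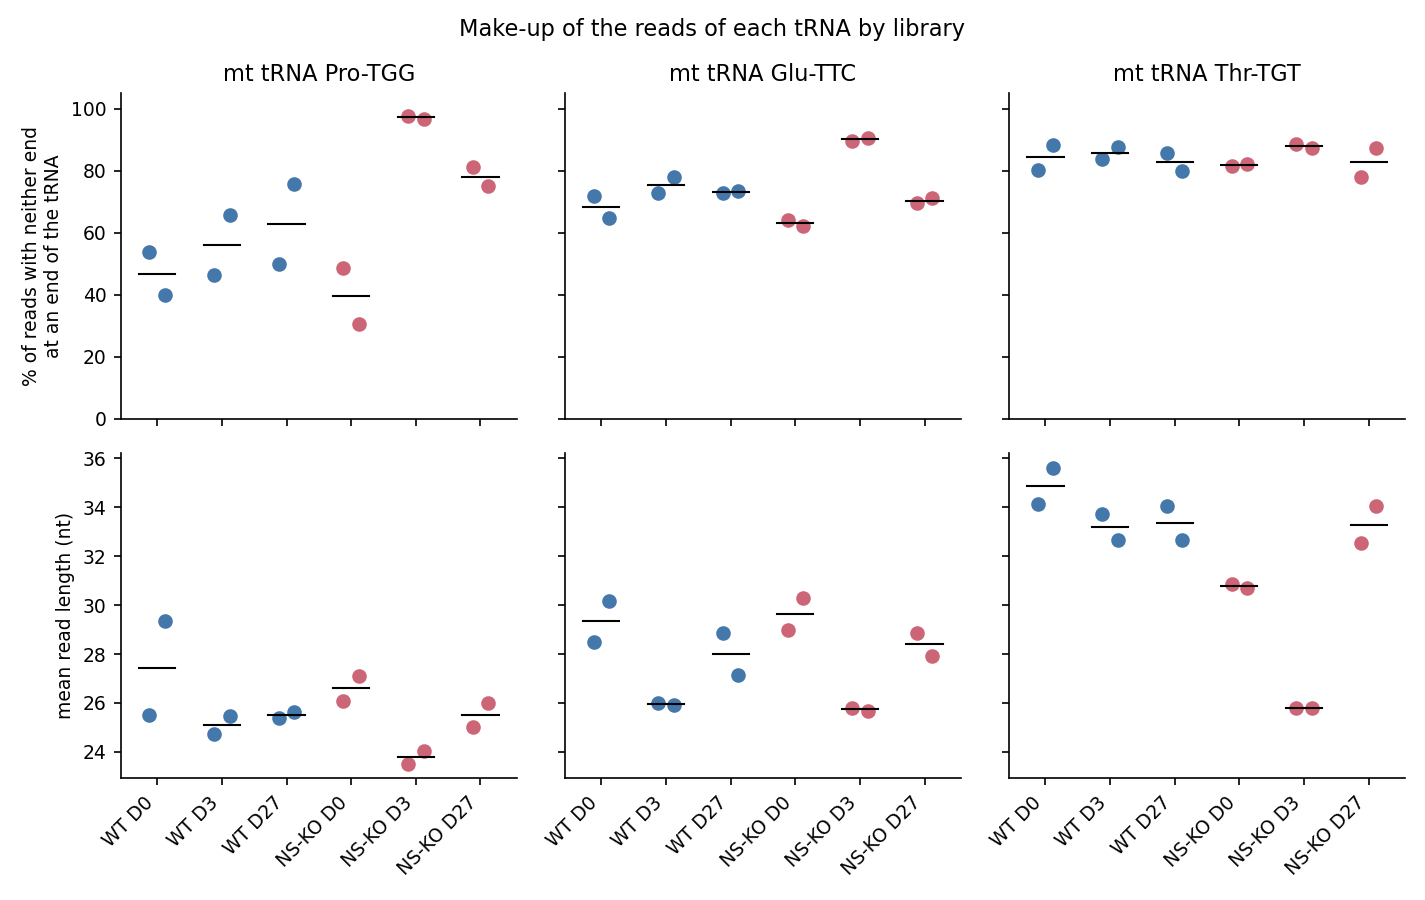
Percentage of reads with neither end at an end of the tRNA (upper row) and mean read length in nt (lower row, axis not from 0) for the 3 tRNAs in the 12 libraries; points are libraries and bars group means, WT blue and NS-KO red. At NS-KO D3 the Pro reads are 97.3% internal on average and the Thr reads are 25.8 nt long in both libraries.

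The members were also compared as single fragments, most of which had few reads. Of the 3547 members, 2157 have 1 read in all and 674 passed the filter of 20 CPM in at least 1 library (185 Pro, 418 Glu and 71 Thr). Of these, 142 Pro, 187 Glu and 10 Thr fragments passed through the NS-KO D3 libraries alone, and such fragments had to differ, so the counts below are descriptions. At D3, 112 Pro, 167 Glu and 3 Thr fragments were called higher in NS-KO and 0 lower, while 9.98% of all 22065 fragments tested were called higher. From D0 to D3 in NS-KO, 116 Pro, 164 Glu and 4 Thr fragments were called higher (10% of all fragments), and 2 Pro fragments lower (0.87% of all). For the difference between genotypes in this change, 75, 108 and 3 were called (5.28% of all), and over days 43, 60 and 1 (3.93% of all). At D0 and at D27 the count was 0 of 674 by limma, with 11 and 13 higher at an unadjusted p under 0.05, and 0 and 6 called higher with voom weights. No share of all fragments is given beside the unadjusted and voom counts, so they do not set the members apart. With a stricter filter of about 10 reads in at least 2 libraries, 32 members were called higher at D3, also without such a share. These counts also moved with single libraries: over days there were 19 without WT D0 replicate 1 and 327 without NS-KO D3 replicate 1, and for the difference in change 17 and 330.

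The Glu fragment of bases 39 to 59 had the largest fitted change of the members called at D3. It had 46 and 57 reads in the NS-KO D3 libraries and 0 in each of the other 10, so its mean CPM was at least 12.5-fold higher than in WT at D3, taking 3 reads in each WT D3 library as the bound. It passed the filter through the NS-KO D3 libraries alone, so no p is given. The other 5 fragments named by size at D3 were also from Glu and overlap each other. They start at base 48 or 49, end between bases 63 and 66, and had 51 to 83 reads in the NS-KO D3 libraries together and 3 to 14 in the other 10 together. The fragment of bases 48 to 63 had 0 reads in WT at D3 and was at least 6.19-fold higher. The call for bases 48 to 65 was lost without WT D3 replicate 1 or NS-KO D3 replicate 2, and with mature mitochondrial reads as the total (2.10).

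The leading Pro fragments of NS-KO D3 had few reads elsewhere, where Pro had only 16 to 41 reads in a library. Bases 37 to 55 had 27 and 29 reads in the NS-KO D3 libraries, and 1 read in each of WT D3 replicate 1, WT D27 replicate 1 and NS-KO D27 replicate 2. The form of bases 37 to 57 with C57T at its last base had 16 and 28 reads there and 1 elsewhere, and the same stretch without a mismatch had 17 and 24 there and 0 elsewhere. Bases 38 to 55 had 14 and 21 reads there and 7 elsewhere. As a share of Pro reads, bases 37 to 55 held 1.87% to 1.89% in the NS-KO D3 libraries and 0% to 3.57% in the others. The C57T form held 1.11% to 1.83% there and 0% to 6.25% in the others. Bases 38 to 55 held 0.97% to 1.37% there and 0% to 6.25% in the others. The form of bases 37 to 57 without a mismatch held 1.18% to 1.57% there. These Pro fragments reached the filter through the NS-KO D3 libraries, some also through 1 read in a shallow library, and their values are descriptions. In contrast, the 5′ fragment of bases 1 to 30 had 0 to 6 reads in each WT library. In NS-KO it had 7 and 4 reads at D0, then 1 and 1 at D3, then 1 and 1 at D27. It was called lower from D0 to D3 in NS-KO (log2 change -1.70, SE 0.48, limma adjusted p = 0.0461). The other Pro fragment called lower, bases 37 to 65, rests on 2 reads in all. With reads outside tRF-5c as the total, neither of these fragments was called lower.

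The most abundant fragments of Glu and Thr were not among those called at D3. The Glu fragment of bases 38 to 72, which keeps the CCA end, had 25 to 45 reads in each WT library. In NS-KO it had 50 and 39 reads at D0, then 49 and 48 at D3, then 45 and 65 at D27. Its log2 fold change at D3 was 0.38 (SE 0.49, limma adjusted p = 0.971). It made up 1.72% and 1.49% of Glu reads in the NS-KO D3 libraries and 6.37% to 13.6% in the others. None of the 5 Glu fragments with the highest mean CPM was called at D3, and together they made up 4.85% and 6.25% of Glu reads there against 20.6% to 35.1% elsewhere. For Thr the fragment of bases 30 to 69 without a mismatch had 7 to 13 reads in each WT library, and 11 and 8 in those of NS-KO D3 (log2 fold change -0.27, SE 0.80). None of the 5 leading Thr fragments was called, and their joint share was 8.75% and 10.3% there against 26.2% to 59.4% elsewhere. The 5 leading Pro fragments made up 5.20% and 6.73% of Pro reads in these libraries and 6.06% to 25% elsewhere.

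More distinct sequences were read in NS-KO D3, where there were also more reads. The NS-KO D3 libraries hold 643 and 665 distinct Pro sequences among 1441 and 1531 Pro reads. Each other library holds 15 to 38 among 16 to 41 reads, so these counts follow the number of reads. Of all distinct sequences, 82.1% for Pro, 58.9% for Glu and 58.1% for Thr were read in the NS-KO D3 libraries alone. These libraries hold 90.3%, 62.8% and 53.8% of the reads of the 3 tRNAs. Of the reads, 56.1% for Pro, 64.2% for Glu and 55.1% for Thr match the tRNA without a mismatch.

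Mismatches lay mainly at the last base of the read. At positions covered by at least 100 reads, a mismatch share of 5% or more was found at 10 positions. At 8 of them, all near the 3′ end or at bases 56 and 57 of Pro, 87.2% to 100% of the mismatches were at the last base of the read. Examples are C57T in Pro (21.5% of 1547 covering reads differ at this base), C71T in Glu (28.5% of 2846) and C69T in Thr (36.3% of 499). Of the 3 positions covered by at least 20 reads in every library, 0 differed between genotypes in the exact permutation test (lowest adjusted p = 0.347).

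At the other 2 positions the mismatches lay inside the read. At base 29 of Thr, 2 bases before the anticodon, 87 of 235 covering reads (37.0%, Wilson 95% interval 31.1 to 43.4) had another base, C29T in 69 of them. Only 4.60% of these mismatches were at the last base of the read. Of 37 covering reads in WT livers 40.5% differed (26.4 to 56.5), and of 198 in NS-KO livers 36.4% (30.0 to 43.3). The share was 33.7% and 41.0% in the NS-KO D3 libraries. A difference between the genotypes was not detectable at this depth. Mitochondrial Thr tRNA is known to carry 3-methylcytidine at this place in the anticodon loop, and the library protocol includes a demethylation step for that base. Whether the mismatch marks it was not tested. At base 9 of Glu, 18 of 226 covering reads (7.96%, Wilson 95% interval 5.10 to 12.2) had another base, A9T in 11 of them. Of 45 covering reads in WT livers 4.44% differed (1.23 to 14.8), and of 181 in NS-KO livers 8.84% (5.51 to 13.9). The intervals cover counting error only, and reads amplified by PCR are not independent molecules.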

How the data were processed

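The tRF-seq libraries of 14 to 40 nt RNA had been treated to remove charged 3′ ends, cyclic phosphates, m1A and m3C before adapter ligation. Per the labels and methods, the authors used FastQC, cutadapt and Bowtie with up to 1 mismatch, first on mature tRNAs and then on precursors; versions are not given in the sources used here. The deposited table lists, for each tRNA, whole-number reads of each distinct sequence in the 12 libraries, a unit recorded as other because text lines stand between the values; they were not normalized. Its columns were matched to samples through the read names of each sample's own file, and equal that file for every sequence.

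Each sequence was counted once. Reads were summed by tRNA and by tRNA and subtype. The design named edgeR, which the authors used; because the table is not accepted as a count table it was not run, and limma 3.58.1 (R 4.3.3) with a trend was fitted to log2 CPM with TMM factors (0.476 to 1.79, computed from all sequences) and a prior count of 2, with 1 mean per group and 12 libraries. Fragments entered at 20 CPM in at least 1 library, and sums with at least 10 reads in all and a CPM that matches 10 reads at the median library size in at least 2 libraries (165 tRNA sums and 339 subtype sums). Adjusted p under 0.05 was called. Shares, make-up and mismatches were compared by exact permutation of genotype within days (216 arrangements). Scripts were tested on simulated data.

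Named fragments are the 5 with the highest mean CPM per tRNA and, per comparison, up to 6 called fragments per direction with the largest change; named mitochondrial tRNAs are the 3 most alike in log2 CPM and those of a strand list, of which 21 were in the table, 20 passed the filter and Tyr was not analysed here. The members and lists were chosen with earlier results of these data known. Same-numbered replicates did not deviate together (3 of 15 pairs of groups above r = 0.1, range -0.35 to 0.54), so no pairing was assumed. Alternatives covered scaling, weights, prior count, filters, mismatches, shared sequences, a replicate block and each library left out.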

Additional observations from a re-analysis of the deposited data

Results flagged for a closer look

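The change from D0 to D3 differed between the genotypes by the interaction term of the limma fit. For the tRNA sums, the change in NS-KO minus that in WT was 4.59 for Pro, 1.94 for Glu and 1.95 for Thr on the log2 scale. For the sums of type Other it was 5.54 for Pro, 1.94 for Glu and 2.03 for Thr. Among single fragments, 186 of the 674 members that passed the filter differed in this change, all towards a larger rise in NS-KO, against 5.28% of all 22065 fragments. Many of these members passed the filter through the NS-KO D3 libraries alone and so had to differ. The count was 0 relative to mitochondrial reads and 17 without WT D0 replicate 1. The 2 NS-KO D3 libraries enter each of these values. They also hold the most distinct sequences of the series, though not per read, and the largest share of mitochondrial reads. The part of these differences in the values was not tested.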

How the results depend on the processing

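Each group has 2 libraries, and 16 Pro reads in the shallowest case limit what shares can show. DESeq2, planned only for a count table, was not run. At D3, over days and from D0 to D3 in NS-KO, the Pro and Glu sums kept their direction under all settings run, and the Thr sum under all but 1 scaling; all 3 kept their calls in all 12 fits without 1 library.

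Scaling mattered most. With CPM alone, NS-KO was called higher at D0 (Pro 1.94, Glu 2.13, Thr 1.49) and D27 (1.55, 2.12, 1.67), while the interaction at D3 was lost for Glu (0.48) and Thr (0.53), and so was the Thr change from D0 to D3 in NS-KO (1.14). With reads outside tRF-5c as the total, the interaction was lost for Glu (1.30) and Thr (1.33). With mature mitochondrial reads as the total, Glu was lost at D3 (0.56), over days (0.34) and in the interaction (0.37). Thr was lost in the interaction (0.41) and from D0 to D3 in NS-KO (0.36), and it turned at D0 (-0.42), D3 (-0.010), D27 (-0.12) and over days (-0.18); Pro turned at D27 (-0.20). TMM factors from tRNA sums, chosen after seeing the data, turned Thr at D0 (-0.032). Leaving out D3 lost Pro (0.42) and Thr (0.22) over days. Without 1 library, Pro at D27 ranged from -0.33 to 0.70, and Glu at D0 from 0.69 to 0.88, called only without either NS-KO D3 library. In such fits the lone library of a group is assumed to vary like the others.

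The tRF-3b sum of Pro turned from D0 to D3 in NS-KO with CPM alone (-0.32), reads outside tRF-5c (-0.20) and mitochondrial reads (-0.82), and ranged from -0.71 to 1.04 without 1 library. The tRF-5c sum at D3 ranged from -0.46 to 0.27.

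The counts of member fragments that follow are given without the share of all fragments called in each setting. The count called higher at D3 (282) became 124 with mitochondrial reads and 32 with the stricter filter. From D0 to D3 in NS-KO (284) these were 98 and 28. Over days (104) it was 62 with CPM alone, 28 outside tRF-5c, 5 with mitochondrial reads, 50 with tRNA-sum factors, 340 with voom weights, 69 with the replicate block, 35 with the stricter filter and 67 with no filter, and 19 to 327 without 1 library, with WT D0 replicate 1 left out at the low end and NS-KO D3 replicate 1 at the high end. For the interaction (186) it was 34, 23, 0 and 87 in the first 4 of these settings, 25 with the stricter filter, and 17 to 330 without the same libraries. Fragments called lower from D0 to D3 in NS-KO (2) were 0 outside tRF-5c, 1 with tRNA-sum factors, the stricter filter or no filter, 51 with voom weights, and 1 to 58 without 1 library (58 without NS-KO D0 replicate 1).

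As a share of all tRNA reads, the genotype difference passed for Pro (0.329 percentage points), Glu (0.888) and Thr (0.0959, turned). On this total, mature mitochondrial reads as a whole were also higher in every NS-KO library (20.4% to 50.1%) than in WT (4.81% to 12.0%). As a share of reads outside tRF-5c, the difference passed for Glu (0.867) and not for Thr (0.0722, turned). How many of the 21 mature mitochondrial tRNAs passed on these totals is not given here, so these differences are not particular to the 3. The replicate block changed no call of a tRNA sum; the Pro value at D3 stayed at 5.23.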
